A study of Homo sapiens with 8 samples.

Results

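The genes described here are 10 targets and brakes of the RAS-ERK pathway: the phosphatase genes DUSP4, DUSP5 and DUSP6, the Sprouty genes SPRY1, SPRY2 and SPRY4, the Sprouty-related genes SPRED1 and SPRED2, and the ETS transcription factor genes ETV4 and ETV5. They were chosen by name, and each name matched 1 Ensembl identifier of the GENCODE 29 annotation among the 60609 identifiers of the deposited table. All 10 had enough reads to be tested, among 15751 tested genes in all. The 8 RNA-seq libraries came from the established colon cancer line HCT116. The libraries labelled GNAS R201C/+ (4 libraries) came from a derivative of HCT116 edited with CRISPR-Cas9 to carry R201C on 1 allele of GNAS, and the parental libraries (4 libraries) came from HCT116 cells with wild-type GNAS. Cells of both groups grew in the same medium with 10% serum. The labels do not say whether the derivative is 1 clone or whether replicates were separate cultures, so clone and edit cannot be told apart, and the p-values cover only library-to-library spread, possibly of technical origin.

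The GNAS product, the alpha subunit of the stimulatory G protein, is kept active by R201C and raises cyclic AMP (cAMP) through adenylyl cyclase. In the ERK pathway, growth factor receptors activate RAS, RAF, MEK and ERK in turn, and active ERK induces genes whose products switch the pathway off again. Dual-specificity phosphatases of the DUSP family remove phosphate from ERK, Sprouty and SPRED proteins act upstream on RAS and RAF, and ETV4 and ETV5 are factors that carry the ERK signal to further genes. The transcripts of these genes are widely read as a gauge of ERK output, and cAMP is known to raise or lower ERK activity depending on the cell. The comparison asked how far each of these genes differed in level in GNAS R201C/+ cells from parental cells.

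The libraries held 45796887 to 48768360 counts in GNAS R201C/+ cells and 42584988 to 50986733 in parental cells, and mitochondrial genes took 5.34% to 5.82% of them. GNAS itself averaged 711 ± 13.2 CPM (the count scaled by library size) in GNAS R201C/+ and 677 ± 16.8 CPM in parental libraries (SD, n = 4 each), a log2 fold change of 0.07 that was called higher although the groups overlapped (edgeR adjusted p = 0.00412). This is its total level and not that of the edited allele. Of 7 markers of colon epithelium, 6 were above 1 CPM in every library, and the seventh, VIL1, had 3 to 10 reads. Their summed level was 4400 to 4482 CPM in GNAS R201C/+ and 3853 to 4008 CPM in parental libraries, and the part of this difference in the results was not tested. The markers of leukocytes, of endothelial cells and of fibroblasts each summed to less than 1 CPM in every library. PTPRC, CD3E, DCN and PDGFRA were listed at 0, which does not show that they were silent, as set out below for HRAS.

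The 10 genes did not move together. In GNAS R201C/+ cells DUSP4 was 2.25-fold higher and ETV5 1.09-fold higher, while DUSP5, SPRY1, SPRY4, SPRED1 and ETV4 were lower, SPRY1 by the most (1.65-fold lower) and SPRED1 by the least (1.05-fold lower). DUSP6, SPRY2 and SPRED2 did not pass the test. Thus 2 of the 10 genes rose, where 24.1% of all tested genes rose, and 5 fell, where 24.0% of all tested genes fell. In either direction 7 of 10 were called, against 48.1% of tested genes. Calls rest on edgeR's quasi-likelihood F test, with p-values adjusted by the Benjamini-Hochberg method across the 15751 genes and a threshold of 0.05 on the adjusted p. The CPM ranges of the groups did not overlap for the same 7 genes, against 41.6% of tested genes. Of the 10, DUSP4, DUSP5 and SPRY1 changed at least 1.5-fold, and 5.00% of tested genes were both called and changed by that much. The median log2 fold change of the 10 was -0.05, against 0.0019 over all tested genes.

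**Figure D1:**
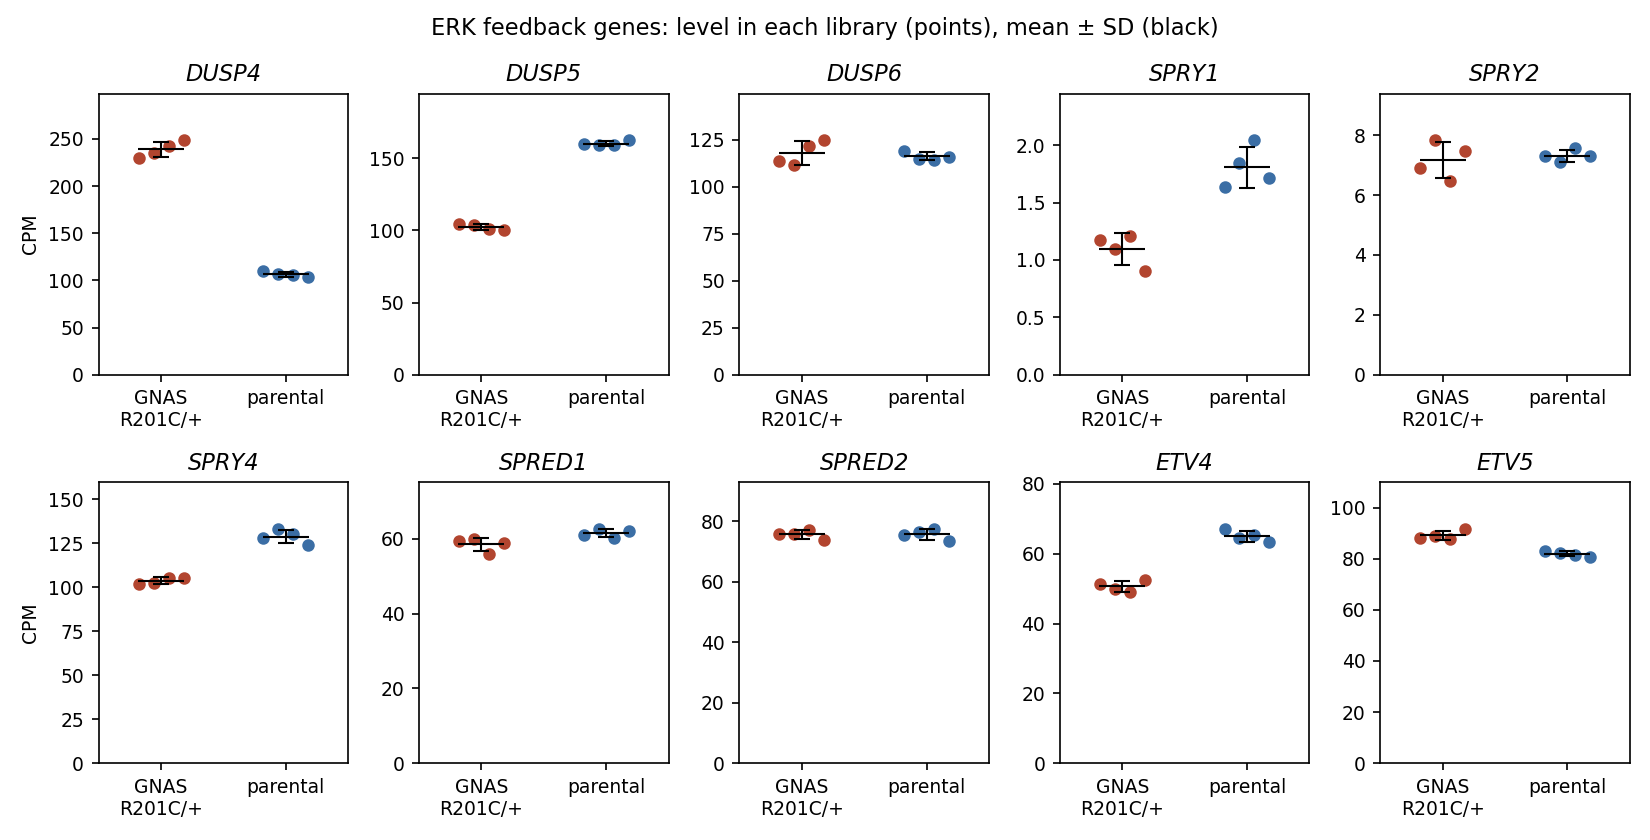
Level of each of the 10 genes in CPM (vertical axes, each starting at 0) in the 4 GNAS R201C/+ libraries (left, red) and the 4 parental libraries (right, blue); points are libraries, black bars the mean ± SD. DUSP4 lies at 230.3 to 248 CPM in GNAS R201C/+ and 104 to 109.6 CPM in parental libraries, DUSP5 is shifted the other way, and the groups overlap for DUSP6, SPRY2 and SPRED2.

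**Figure D2:**
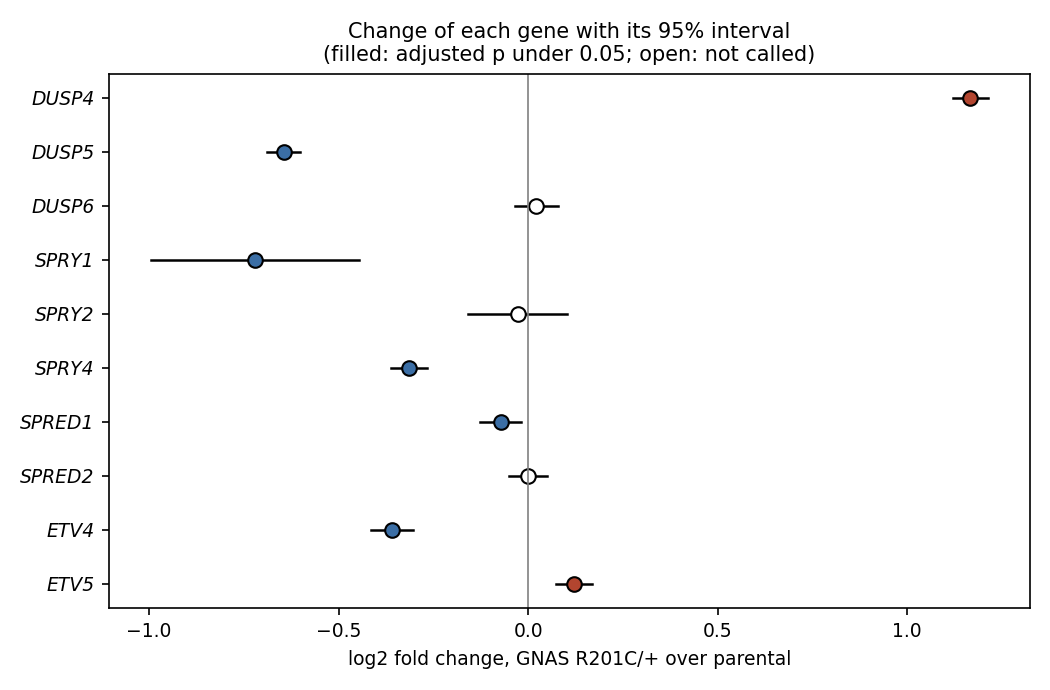
Log2 fold change of GNAS R201C/+ over parental (horizontal axis) for each gene, with its 95% interval from the edgeR fit; filled points were called and open points were not. The interval of DUSP4 runs from 1.12 to 1.21, that of DUSP5 from -0.69 to -0.60, and those of DUSP6, SPRY2 and SPRED2 include 0.

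Of the phosphatase genes, DUSP4 rose, DUSP5 fell and DUSP6 did not pass the test. DUSP4 (ENSG00000120875.9, GRCh38 chromosome 8, 29333064 to 29350668, minus strand) encodes a nuclear phosphatase that acts on ERK and also on JNK and p38. It had 230.3, 235, 242 and 248 CPM in GNAS R201C/+ libraries 1 to 4, against 109.6, 107, 105 and 104 CPM in the parental libraries. Every GNAS R201C/+ library was above every parental library. In bulk RNA, a higher level in all cells and a larger share of cells with a high level cannot be told apart. The means were 239 ± 7.91 CPM in GNAS R201C/+ and 106 ± 2.37 CPM in parental cells (SD, n = 4 each), a log2 fold change of 1.17 (SE 0.02, edgeR adjusted p = 1.79e-34). Only 1.13% of tested genes had a larger absolute change. The 13 tested genes that start within 1 Mb of DUSP4 had log2 fold changes of -0.68 to 0.35, with a median of -0.02, and 3 of them rose and 4 fell.

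DUSP5 (ENSG00000138166.6, chromosome 10, 110497838 to 110511544, plus strand) encodes a nuclear phosphatase that is specific for ERK and is itself induced by ERK. Its levels were 105, 104, 101 and 100.1 CPM in GNAS R201C/+ libraries, against 159.6, 159, 159 and 162 CPM in parental libraries. The groups were far apart, and the 4 libraries of each group lay close to each other. DUSP5 fell to 102 ± 2.28 CPM in GNAS R201C/+ cells, against 160.0 ± 1.61 CPM in parental cells (SD, n = 4 each), a log2 fold change of -0.64 (SE 0.02, edgeR adjusted p = 2.945e-26). Against a change of 1.5-fold rather than of any size, DUSP5 did not pass (edgeR adjusted p = 0.0589).

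DUSP6 (ENSG00000139318.8, chromosome 12, 89347232 to 89353271, minus strand) encodes the cytoplasmic phosphatase of ERK and is among the most used readouts of ERK activity. It had 113, 112, 122 and 125 CPM in GNAS R201C/+ libraries and 119, 115, 114 and 116 CPM in parental libraries. The groups overlapped, and the GNAS R201C/+ libraries were spread more widely, with a coefficient of variation of 5.35% against 1.82% in the parental libraries. Its log2 fold change was 0.022, and the 95% interval ran from -0.036 to 0.080 (edgeR adjusted p = 0.555). On the opposite strand DUSP6 shares 1875 of its 4632 exonic bases with the antisense gene AC024909.2, which had 3 to 10 reads per library.

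Levels of different genes were compared as TPM, counts per kilobase of annotated exonic length, scaled to the same total in every library. This length covers all annotated exons of a gene and need not be that of the transcripts expressed. Ranks and shares by TPM depend on it. DUSP5 had the highest level of the 10 genes in both groups, 139 ± 3.503 TPM in GNAS R201C/+ and 221 ± 2.10 TPM in parental libraries (SD, n = 4 each). DUSP4 ranked second of the 10 in GNAS R201C/+ libraries, at 117 ± 3.75 TPM, and sixth in parental libraries, at 53.1 ± 1.07 TPM. DUSP6 stood at 90.3 ± 4.65 TPM in GNAS R201C/+ and 90.6 ± 1.29 TPM in parental libraries. Summed over the 3 phosphatase genes, the level was 346 ± 5.20 TPM in GNAS R201C/+ and 365 ± 1.95 TPM in parental libraries, with ranges of 343 to 354 TPM in GNAS R201C/+ and 362 to 367 TPM in parental libraries. Its make-up differed between the groups. DUSP4 gave 33.8 ± 0.620% of it in GNAS R201C/+ and 14.5 ± 0.294% in parental libraries, DUSP5 gave 40.2 ± 1.51% in GNAS R201C/+ and 60.6 ± 0.526% in parental libraries, and DUSP6 gave 26.1 ± 0.991% in GNAS R201C/+ and 24.8 ± 0.274% in parental libraries.

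**Figure D3:**
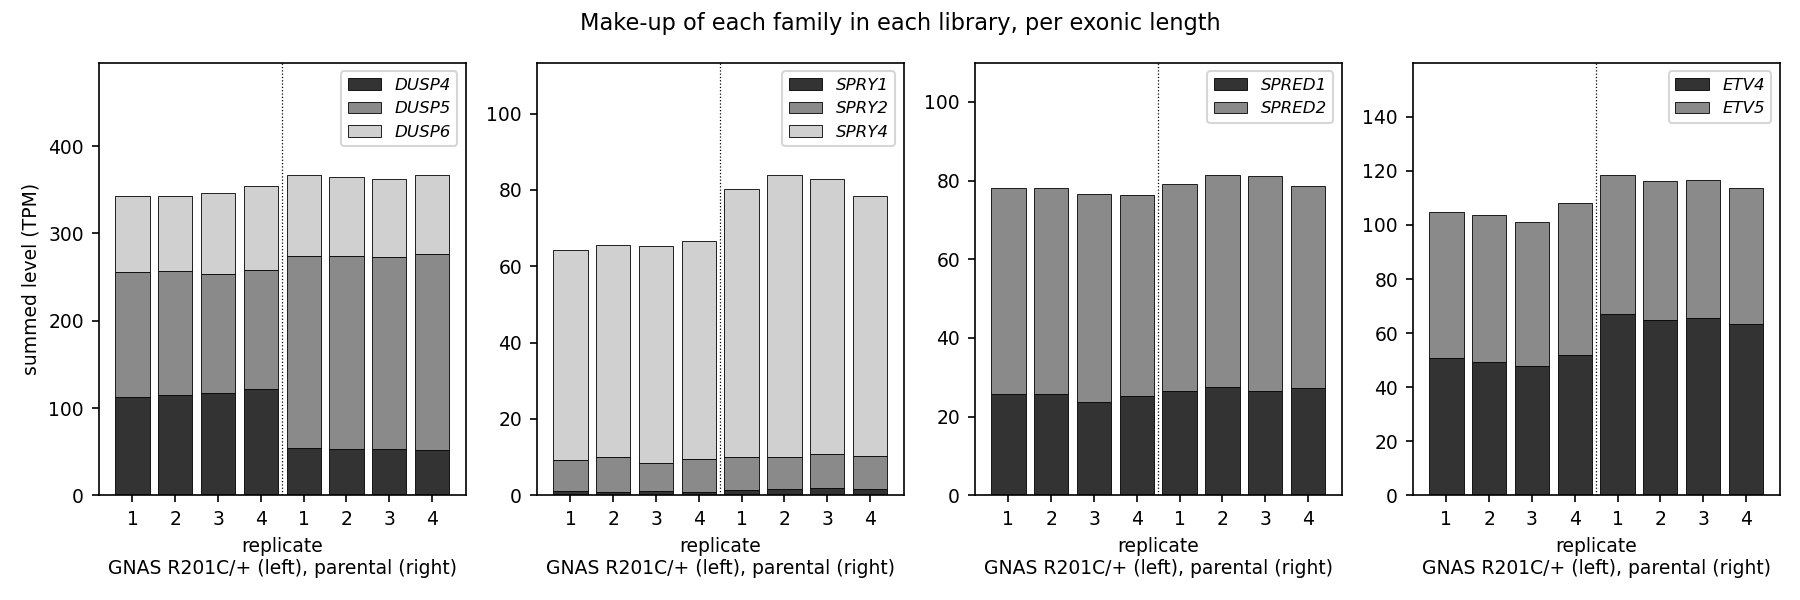
Summed level in TPM (vertical axes, starting at 0) of each family in each library, stacked by gene; GNAS R201C/+ libraries 1 to 4 stand left of the dotted line and parental libraries 1 to 4 right of it. The DUSP4 segment is larger and the DUSP5 segment smaller in the GNAS R201C/+ libraries, while the whole bar is 343 to 354 TPM in GNAS R201C/+ and 362 to 367 TPM in parental libraries; the Sprouty bars are lower in all 4 GNAS R201C/+ libraries.

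Ratios between members of a family within a library do not depend on how libraries are scaled. The DUSP4 to DUSP6 ratio averaged 1.30 in GNAS R201C/+ and 0.585 in parental libraries (geometric means of TPM ratios), a log2 difference of 1.146. The DUSP5 to DUSP6 ratio averaged 1.54 in GNAS R201C/+ and 2.44 in parental libraries, a log2 difference of -0.67. For both ratios the groups did not overlap. A two-sided exact permutation test over the 8 libraries gave p = 0.0286, the smallest value that 4 against 4 libraries allow, and 0.0358 after Benjamini-Hochberg adjustment over the 5 ratios computed. The changes of DUSP4 and DUSP5 were known when the ratios were chosen. All 10 genes were listed with earlier results of these data known. None of the 5 ratio tests therefore adds independent evidence.

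The Sprouty genes were lower in GNAS R201C/+ cells where they passed the test, and SPRY4 made up most of their summed level. Sprouty proteins are induced by growth factor signalling and dampen the relay between receptor, RAS and RAF. The promoter stretches below are shown because cAMP acts on many promoters through the factor CREB and the ERK pathway through ETS factors, and because SPRY4 and SPRY1 fell while SPRY2 did not pass. They are RefSeq windows of GRCh38.p14, from 250 bases before a start site to 50 after it. Capitals mark matches on either strand to TGACG (or CGTCA), the core of the cAMP response element, to CCGGAA (or TTCCGG), an ETS core, and to TGANTCA, the AP-1 site. SPRY4 has 1 window (chr5:142324198-142324497, minus strand), the first of the SPRY2 windows is chr13:80341077-80341376 (minus strand), and the SPRY1 windows are chr4:123396545-123396844 and chr4:123398136-123398435 (plus strand).
SPRY4: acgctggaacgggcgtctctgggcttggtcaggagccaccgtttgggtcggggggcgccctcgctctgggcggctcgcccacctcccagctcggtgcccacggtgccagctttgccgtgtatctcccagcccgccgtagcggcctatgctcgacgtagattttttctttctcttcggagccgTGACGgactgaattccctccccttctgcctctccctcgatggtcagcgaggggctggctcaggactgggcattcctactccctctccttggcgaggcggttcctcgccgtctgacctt
SPRY2: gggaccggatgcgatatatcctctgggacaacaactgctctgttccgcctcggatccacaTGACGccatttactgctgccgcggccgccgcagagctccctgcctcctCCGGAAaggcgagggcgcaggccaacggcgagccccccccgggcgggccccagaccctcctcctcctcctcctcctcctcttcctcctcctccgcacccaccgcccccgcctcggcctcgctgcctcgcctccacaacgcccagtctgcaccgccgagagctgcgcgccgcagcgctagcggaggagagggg
SPRY1, upstream start: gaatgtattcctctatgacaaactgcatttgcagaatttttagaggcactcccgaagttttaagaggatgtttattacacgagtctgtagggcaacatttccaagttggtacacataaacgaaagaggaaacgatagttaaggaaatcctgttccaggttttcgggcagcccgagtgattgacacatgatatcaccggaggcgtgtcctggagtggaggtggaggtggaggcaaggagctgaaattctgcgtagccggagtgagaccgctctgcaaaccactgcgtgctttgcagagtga
SPRY1, downstream start: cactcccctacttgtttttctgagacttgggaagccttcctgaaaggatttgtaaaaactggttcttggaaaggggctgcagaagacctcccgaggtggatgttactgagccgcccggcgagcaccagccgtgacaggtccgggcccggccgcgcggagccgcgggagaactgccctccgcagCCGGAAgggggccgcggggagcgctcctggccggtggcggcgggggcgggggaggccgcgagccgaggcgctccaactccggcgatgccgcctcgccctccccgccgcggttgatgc

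SPRY4 holds TGACG beginning 68 bases before its start site, SPRY2 holds TGACG and CCGGAA, the downstream SPRY1 window holds CCGGAA, and the upstream SPRY1 window holds no match. Of 35114 such windows in RefSeq, 24.6% hold TGACG or its reverse, 17.2% an ETS core, 7.71% an AP-1 site and 1.85% the full cAMP response element TGACGTCA, which contains TGACG and was found in no window of these genes. Windows on chromosome 8 were left out, so DUSP4 was not searched. Of the 10 genes, 6 had a RefSeq window that was searched, and DUSP5, ETV4 and ETV5 matched none. The absence of the full element covers those 6 genes only. The other SPRY2 windows hold no match. The first SPRED2 window (chr2:65432550-65432849, minus strand) holds TGACG on its reverse strand, its second holds 2 AP-1 sites, and those of DUSP6 and SPRED1 hold no match. A match describes the letters of the window and not a bound site.

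SPRY4 (ENSG00000187678.9, chromosome 5, 142310427 to 142326455, minus strand) had 102, 102, 105 and 105 CPM in GNAS R201C/+ libraries, against 128, 133, 130.1 and 124 CPM in parental libraries. Every GNAS R201C/+ library was below every parental library. SPRY4 averaged 104 ± 1.93 CPM in GNAS R201C/+ and 129 ± 3.89 CPM in parental cells (SD, n = 4 each), a log2 fold change of -0.31 (SE 0.02, edgeR adjusted p = 1.05e-14), which is 1.24-fold lower.

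SPRY2 (ENSG00000136158.12, chromosome 13, 80335976 to 80340951, minus strand), another inhibitor of receptor tyrosine kinase signalling, stood at 8.39 ± 0.732 TPM in GNAS R201C/+ and 8.71 ± 0.235 TPM in parental libraries, below SPRY4 at 56.1 ± 0.878 TPM in GNAS R201C/+ and 71.0 ± 2.34 TPM in parental libraries. It had 6.92, 7.83, 6.47 and 7.48 CPM in GNAS R201C/+ libraries and 7.30, 7.09, 7.57 and 7.30 CPM in parental libraries. The parental values fell inside the GNAS R201C/+ range. Its log2 fold change was -0.027, and the 95% interval ran from -0.16 to 0.10 (edgeR adjusted p = 0.763), an interval that does not reach the change of SPRY4. The SPRY2 to SPRY4 ratio of TPM averaged 0.149 in GNAS R201C/+ and 0.123 in parental libraries, with no overlap (two-sided exact permutation p = 0.0286, adjusted p = 0.0358). Like the other ratio tests, this one adds no independent evidence.

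SPRY1 (ENSG00000164056.11, chromosome 4, 123396795 to 123403760, plus strand) was scarce, with 55, 50, 57 and 44 reads in GNAS R201C/+ libraries and 83, 85, 88 and 73 reads in parental libraries. As CPM these were 1.18, 1.10, 1.21 and 0.902 in GNAS R201C/+ and 1.63, 1.85, 2.04 and 1.71 in parental libraries. All GNAS R201C/+ libraries were lower than all parental libraries. Its log2 fold change was -0.72 (SE 0.14, edgeR adjusted p = 2.48e-05), and its 95% interval, -0.995 to -0.446, was the widest of the 10 genes. The fibroblast growth factor gene FGF2 lies within 1 Mb of SPRY1, where 6 genes were tested, of which 1 rose and 2 fell. Summed over the 3 Sprouty genes, the level was 65.4 ± 0.954 TPM in GNAS R201C/+ and 81.4 ± 2.43 TPM in parental libraries, and SPRY4 gave 85.7 ± 0.938% of it in GNAS R201C/+ and 87.3 ± 0.477% in parental libraries (SD, n = 4 each).

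The SPRED genes hardly differed. SPRED proteins bind neurofibromin, the product of NF1, and bring it to the membrane, where it turns RAS off. SPRED1 (ENSG00000166068.13, chromosome 15, 38252326 to 38357249, plus strand) had 59.5, 60.0, 55.9 and 58.8 CPM in GNAS R201C/+ libraries and 60.9, 62.7, 60.4 and 62.2 CPM in parental libraries. The ranges just failed to meet, and GNAS R201C/+ replicate 3 was the lowest library. Its log2 fold change was -0.073 (SE 0.027, edgeR adjusted p = 0.0239), and the call ended without GNAS R201C/+ replicate 3 (adjusted p = 0.155) and without parental replicate 2 (adjusted p = 0.0715).

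SPRED2 (ENSG00000198369.10, chromosome 2, 65310851 to 65432637, minus strand) had 75.9, 75.7, 77.1 and 73.8 CPM in GNAS R201C/+ libraries and 75.5, 76.4, 77.5 and 73.3 CPM in parental libraries. The groups overlapped almost fully. Its log2 fold change was -0.00086, and the 95% interval, -0.051 to 0.049, was the narrowest of the 3 uncalled genes (edgeR adjusted p = 0.980). The SPRED1 to SPRED2 ratio of TPM averaged 0.483 in GNAS R201C/+ and 0.508 in parental libraries, and the groups overlapped (two-sided exact permutation p = 0.143, adjusted p = 0.143).

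The closely related factor genes ETV4 and ETV5 also parted. Both encode PEA3 factors, ETS proteins whose genes are induced by ERK signalling. ETV4 (ENSG00000175832.13, chromosome 17, 43527844 to 43579620, minus strand) had 51.4, 49.8, 49.0 and 52.4 CPM in GNAS R201C/+ libraries, against 67.1, 64.4, 65.3 and 63.2 CPM in parental libraries. No GNAS R201C/+ library reached the parental range. ETV4 averaged 50.7 ± 1.54 CPM in GNAS R201C/+ and 65.0 ± 1.64 CPM in parental cells (SD, n = 4 each), a log2 fold change of -0.36 (SE 0.03, edgeR adjusted p = 3.03e-14), or 1.28-fold lower. It shares 68 of 3607 exonic bases with DHX8 on the opposite strand, a gene that had a log2 fold change of -0.06.

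ETV5 (ENSG00000244405.8, chromosome 3, 186046308 to 186110318, minus strand) had 88.2, 88.9, 87.7 and 91.7 CPM in GNAS R201C/+ libraries, against 83.0, 82.4, 81.5 and 80.8 CPM in parental libraries. Every GNAS R201C/+ library was above every parental library, by a small margin. ETV5 averaged 89.1 ± 1.79 CPM in GNAS R201C/+ and 81.9 ± 0.996 CPM in parental cells (SD, n = 4 each), a log2 fold change of 0.12 (SE 0.02, edgeR adjusted p = 3.65e-05). It shares 164 of 5802 exonic bases with DGKG on the same strand, a gene at 14.6 CPM in GNAS R201C/+ and 13.9 CPM in parental cells whose reads there cannot be assigned. By TPM, the order of the pair differed between the groups. By CPM, which takes no account of length, ETV5 was above ETV4 in both groups. ETV4 had 50.7 CPM in GNAS R201C/+ and 65.0 CPM in parental cells. The ETV4 to ETV5 ratio of TPM averaged 0.915 in GNAS R201C/+ and 1.28 in parental libraries, a log2 difference of -0.48 with no overlap (two-sided exact permutation p = 0.0286, adjusted p = 0.0358). This test adds no independent evidence to the calls of ETV4 and ETV5.

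Ranked by TPM, the middle of the 10 genes was crowded. In GNAS R201C/+ libraries the order was DUSP5, DUSP4, DUSP6, SPRY4 (56.1 TPM), ETV5 (54.5), SPRED2 (52.1), ETV4 (49.9), SPRED1 (25.2), SPRY2 (8.39) and SPRY1 (0.981). The ranges of SPRY4 and ETV5 overlapped there, as did those of SPRED2 and ETV4. In parental libraries the order was DUSP5, DUSP6, SPRY4 (71.0 TPM), ETV4 (65.2), SPRED2 (53.1), DUSP4 (53.1), ETV5 (51.1), SPRED1 (27.0), SPRY2 (8.71) and SPRY1 (1.65). Of neighbours in that order, only SPRED2 and DUSP4 had overlapping ranges. DUSP4 therefore stood level with SPRED2 in parental libraries and above every one of the 10 genes but DUSP5 in GNAS R201C/+ libraries.

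**Figure D4:**
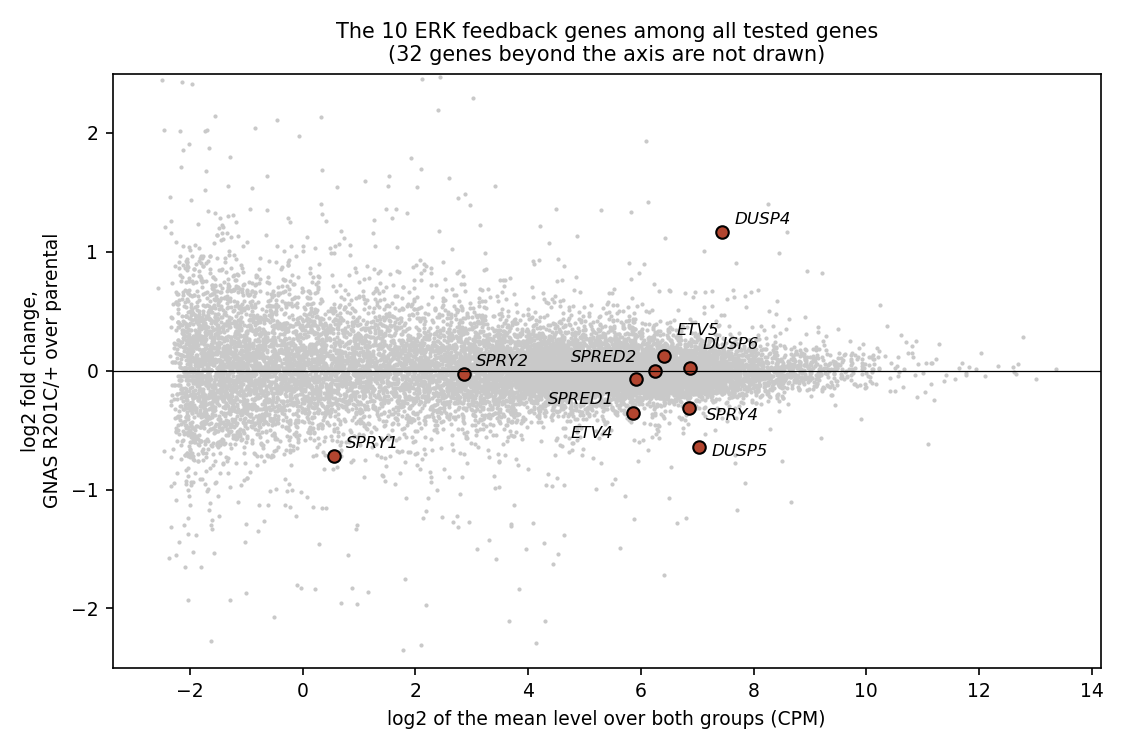
Log2 fold change of GNAS R201C/+ over parental (vertical axis) against the log2 of the mean CPM over both groups (horizontal axis) for 15719 tested genes (grey), with 32 genes beyond 2.5 in either direction not drawn; the 10 ERK feedback genes are red. DUSP4 stands at 1.17 among genes of like level that mostly lie near 0, DUSP5 at -0.64, and DUSP6, SPRY2 and SPRED2 lie in the bulk of genes.

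The genes whose levels followed DUSP4 and SPRY1 most closely over the 8 libraries were found by the root mean square distance of log2 CPM, each gene centred on its own mean, among genes with a mean of at least 5 CPM. Nearest to DUSP4, the largest rise of the 10, was DENND5B, with a distance of 0.04 and 118 ± 1.58 CPM in GNAS R201C/+ against 54.2 ± 0.937 CPM in parental cells. PLEKHA2 followed at 0.05 and the histone gene HIST1H2AC, which has near-identical copies and is uncertain, also at 0.05. Nearest to SPRY1, the largest fall, were AC103718.1 at 0.09, the growth factor gene PDGFB at 0.10 and ARHGAP22 at 0.11. Nearest genes share the group difference by construction.

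Other phosphatase genes and paralogs of the 10 were mixed too. Of 10 listed, 7 were tested, of which 3 rose and 2 fell, with a median log2 fold change of 0.02. Over all tested genes 24.1% rose and 24.0% fell, so the 2 that fell are near the share of all genes. DUSP10, a phosphatase of JNK and p38, rose to 5.13 ± 0.409 CPM in GNAS R201C/+ cells, against 2.05 ± 0.193 CPM in parental cells, a log2 fold change of 1.32 (edgeR adjusted p = 1.92e-15). ETV1, the remaining PEA3 factor, rose to 28.5 ± 1.90 CPM, against 16.9 ± 0.949 CPM in parental cells, a log2 fold change of 0.75. DUSP1, an early response phosphatase that is also induced by cAMP, rose by 0.17 on the log2 scale and the cytoplasmic ERK phosphatase gene DUSP7 fell by 0.25. DUSP2, named after its values were seen, also fell, with overlapping groups, and its call ended without GNAS R201C/+ replicate 1, parental replicate 1 or parental replicate 3, which left 1 lower gene in the list. DUSP9, also named after its values were seen, was lower and called without GNAS R201C/+ replicate 4 or parental replicate 4, which gave 3 lower genes. DUSP8, DUSP16 and SPRY3 were listed at 0 in all 8 libraries. HRAS, a gene that cells in general express, was listed at 0 as well, so a listed 0 does not show that a gene was silent.

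Of 23 genes commonly listed as transcription output of ERK, 21 were tested, of which 8 rose and 8 fell, where 24.1% of all tested genes rose and 24.0% fell. The median log2 fold change was 0.06, and PHLDA2 and TFPI2 were listed at 0. The ephrin receptor gene EPHA4 rose to 6.49 ± 0.515 CPM in GNAS R201C/+ cells, against 2.002 ± 0.0499 CPM in parental cells, a log2 fold change of 1.69 (edgeR adjusted p = 7.36e-20). EMP1, a membrane protein gene, fell by 1.28 on the log2 scale, and the AP-1 subunit gene FOSL1 fell to 88.3 ± 4.35 CPM in GNAS R201C/+ cells, against 127 ± 0.835 CPM in parental cells. MYC fell to 259.9 ± 3.95 CPM in GNAS R201C/+ cells, against 365 ± 7.52 CPM in parental cells. The immediate early genes of the list, named after their values were seen, were mixed. EGR1, FOS and IER5 rose, with log2 fold changes of 0.55, 0.47 and 0.08, and EGR3 fell, with a log2 fold change of -0.50 (edgeR adjusted p = 0.0165). The EGR3 call ended with DESeq2 and without parental replicate 1. IER2 and IER3 did not pass, at log2 fold changes of -0.024 and 0.36 (edgeR adjusted p = 0.396 and 0.283). IER3 had only 11 to 21 reads per library, and its 95% interval ran from -0.19 to 0.91.

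The kinase cascade itself differed little. Of 18 listed genes 17 were tested, of which 7 rose and 5 fell, against 24.1% higher and 24.0% lower over all tested genes. All 17 lay between -0.14 and 0.14 on the log2 scale. The ERK1 gene MAPK3 had a log2 fold change of 0.14, the MEK genes MAP2K1 and MAP2K2 had 0.09 and 0.08, and the scaffold gene KSR1 had -0.14, and all 4 passed. The number of lower genes in this list was 2 without GNAS R201C/+ replicate 3 or parental replicate 2, and 3 without GNAS R201C/+ replicate 4. The calls of PTPN11 and NF1, named after their values were seen, ended without each of these 3 libraries.

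The largest fall among the listed genes was that of a ligand gene, FGF9. Of 18 growth factor ligands, receptors and helpers, 17 were tested, of which 8 rose and 4 fell, with a median log2 fold change of -0.02. Among all tested genes 24.1% rose and 24.0% fell, and 4 of 17 is close to the share that fell. FGF9, which encodes a ligand of fibroblast growth factor receptors, had 8 to 18 reads per library in GNAS R201C/+ cells and 123 to 149 in parental cells, or 0.251 ± 0.0986 CPM in GNAS R201C/+ and 3.02 ± 0.290 CPM in parental cells, a log2 fold change of -3.58 (SE 0.17, edgeR adjusted p = 1.03e-20). FGF2 fell to 5.36 ± 0.131 CPM in GNAS R201C/+ cells, against 14.4 ± 0.828 CPM in parental cells, whereas FGFBP1, which releases such ligands from the matrix, rose to 30.3 ± 2.06 CPM, against 15.8 ± 0.474 CPM in parental cells. The EGF receptor ligand gene AREG rose to 278 ± 3.87 CPM, against 191 ± 5.23 CPM in parental cells. EREG, TGFA and BTC, further ligands of that receptor named after their values were seen, had log2 fold changes of 0.25, 0.28 and 0.36, all called. HBEGF, another of its ligands, did not pass (log2 fold change 0.11, edgeR adjusted p = 0.1065), and EPGN had too few reads to be tested. EGFR itself fell, with a log2 fold change of -0.10 (edgeR adjusted p = 0.000830), although the groups overlapped. Its range was 124 to 132 CPM in GNAS R201C/+ and 129 to 140 CPM in parental libraries.

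Of 13 partners and regulators of the feedback proteins, all tested, 2 rose and 6 fell, with a median log2 fold change of -0.08, where 24.1% of all tested genes rose and 24.0% fell. CAV1, whose product caveolin-1 binds Sprouty proteins, fell by 0.29 on the log2 scale. The ubiquitin ligase gene NEDD4, which targets Sprouty proteins, fell by 0.27, and ATXN1, a partner of the ETV repressor CIC, fell by 0.34. CBL, a lower gene named after its values were seen, had overlapping groups (edgeR adjusted p = 0.0413). Its call ended when GNAS R201C/+ replicate 1, 3 or 4 or parental replicate 2, 3 or 4 was left out. TESK1, a kinase that binds Sprouty proteins, rose by 0.16. The other higher gene, MAP3K1, named after its values were seen, was not called with DESeq2 or when any of 5 libraries was left out (GNAS R201C/+ replicates 1 and 2, parental replicates 1, 2 and 3). CIC itself, named after its values were seen and known to repress ETV4, ETV5 and DUSP6, averaged 106 CPM in GNAS R201C/+ and 105 CPM in parental cells (edgeR adjusted p = 0.718). Of 10 genes that link cAMP to ERK, 8 were tested, of which 3 rose and 1 fell. These 4 of 8 are close to the 48.1% of all tested genes called in either direction. The protein kinase A genes PRKACB, PRKAR1A and PRKACA rose by 0.26, 0.22 and 0.14, and RAPGEF3, which encodes the cAMP sensor EPAC1, fell by 0.36, on 53 to 67 reads per library in GNAS R201C/+ cells and 53 to 81 in parental cells, which overlap. The RAPGEF3 call ended with DESeq2, with limma-voom and when any of 5 libraries was left out (GNAS R201C/+ replicates 1, 2 and 3, parental replicates 2 and 4).

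**Figure D5:**
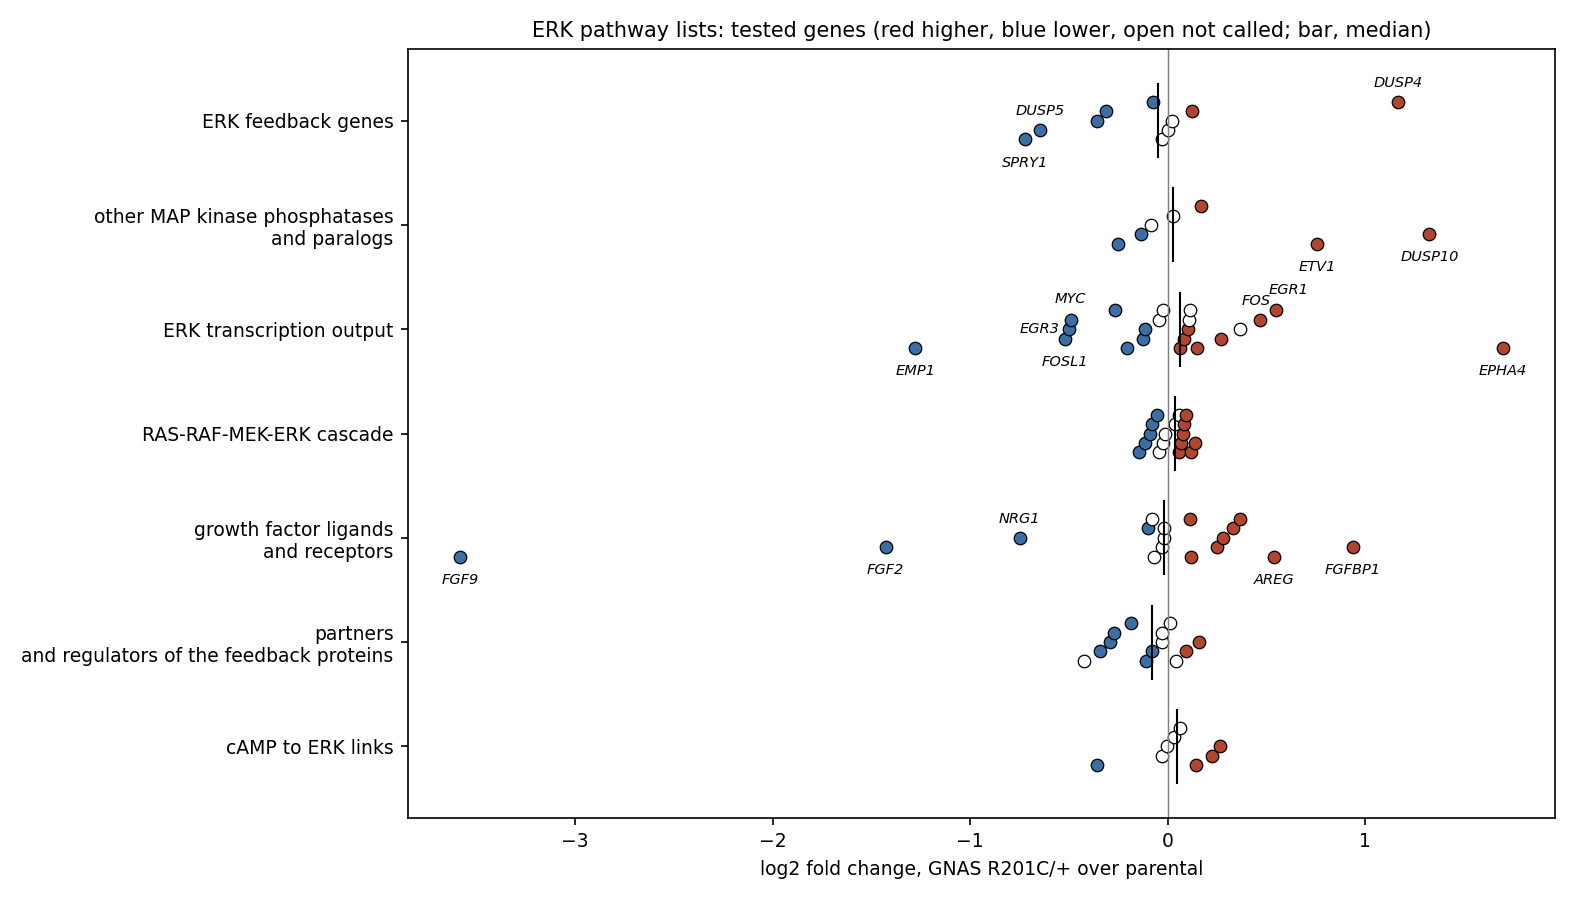
Log2 fold change of GNAS R201C/+ over parental (horizontal axis) for every tested gene of 7 ERK pathway lists (rows); red points rose, blue points fell, open points were not called, and the bar is the median of the list. Medians lie between -0.08 and 0.06, the cascade genes stay within 0.14 of 0, and FGF9 at -3.58 and EPHA4 at 1.69 are the ends of the range.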

How the data were processed

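The deposited table holds raw counts of reads per gene in 8 columns, 1 per library, matched to samples by the descriptions in the labels. The submitters' processing notes name build GRCh38.p12 and, without versions, the tools STAR, featureCounts, bcl2fastq, Trimmomatic and DESeq2. Per the labels' protocols, the library kit was directional. The strand setting of the counting, its handling of multiply mapped reads and its annotation were not given in the sources used here, so reads of overlapping genes may be mixed. Names, positions and exonic lengths came from GENCODE 29 (58457 identifiers matched) and promoters from RefSeq GRCh38.p14.

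In R 4.3.3 with edgeR 4.0.16, genes passing filterByExpr (minimum count 10, minimum total 15) were scaled with TMM and fitted with group as the only term and robust estimation. Standard errors are the absolute log2 fold change over the square root of F, and intervals use them at 95%. They cover the spread between libraries only. CPM uses TMM library sizes. The fit was tested on simulated data. Alternatives were DESeq2 1.42.0, limma-voom (limma 3.58.1), a 1.5-fold test, each library left out, a replicate block, scaling by upper quartile, by library totals or by DESeq2's size factors, and other filters (none, or 1 CPM in 4 libraries).

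All replicate pairs differed by more than sampling noise (chi-square over degrees of freedom 1.62 to 4.07), so none was counted as a duplicate. The 10 genes and the other lists were chosen with earlier results of these data known. Beside the 10 genes and GNAS, the text names up to 4 called genes with the smallest adjusted p in each other list, and the 3 nearest genes of the largest rise and the largest fall. Other genes were named after their values were seen. No gene lists were tested as sets.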

Additional observations from a re-analysis of the deposited data

Results flagged for a closer look

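Outlying libraries were sought for the 10 genes, the up to 4 genes with the smallest adjusted p named from each other list, and the ratios. GNAS, the nearest genes and the genes named after their values were seen were not examined. In the 78 groups of 4 libraries examined, 6 had a library set apart from the other 3 by Dixon's criterion, where chance gives about 1 in 20. None was a level of the 10 feedback genes. The log2 ratio of SPRED1 to SPRED2 was -1.14 in GNAS R201C/+ replicate 3, against -1.03 to -1.01 in the other 3. The SPRED1 call ended without this library, and also without parental replicate 2. EPHA4 was at 5.72 CPM in GNAS R201C/+ replicate 4 and 6.66 to 6.82 CPM in the other 3. DUSP10 was at 1.76 CPM in parental replicate 2 and 2.14 to 2.16 CPM in the others. CAV1 was at 801 CPM in parental replicate 4 and 755 to 762 CPM in the others. NEDD4 was at 20.7 CPM in GNAS R201C/+ replicate 3 and 21.9 to 22.1 CPM in the others. RAPGEF3 was at 1.37 CPM in GNAS R201C/+ replicate 4 and 1.13 to 1.16 CPM in the others.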

How the results depend on the processing

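Over 17 alternatives, DUSP4 was called in all 17, at log2 fold changes of 1.149 to 1.185. DUSP5, SPRY1, SPRY4, ETV4 and ETV5 kept their call and direction in all but the test against a 1.5-fold change, which left 1 of the 10 genes higher (DUSP4) and 0 lower, and called 138 genes higher and 118 lower among all tested genes. In that test the uncalled genes kept their log2 fold changes, -0.64 for DUSP5, -0.72 for SPRY1, -0.31 for SPRY4, -0.073 for SPRED1, -0.36 for ETV4 and 0.12 for ETV5, and it is stricter by construction. SPRED1 ranged from -0.084 to -0.050 with a library left out. DUSP6, SPRY2 and SPRED2 were called under no alternative, and DUSP6 ranged from -0.0046 to 0.049.

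Lower genes among other phosphatases and paralogs numbered 1 to 3 with a library left out, lower cascade genes 2 to 5, higher partners and regulators 1 to 2 (1 with DESeq2), and lower cAMP links 0 to 1 (0 with DESeq2 and with limma-voom). The cause was not tested.

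Same-numbered replicates did not deviate together (correlations of -0.05 to 0.05 over tested genes), so the numbers were not taken to pair the libraries. With the replicate number as a block, 3704 genes were called higher and 3709 lower, against 3796 and 3781 without it, and 2 of the 10 genes were higher and 5 lower in both fits. Counts of 44 to 88 reads limit SPRY1.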
